A study of Drosophila melanogaster with 6 samples.

Results

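The transcription factors that ecdysone, the moulting hormone of insects, switches on in a fixed order were followed across the larval pools of a feeding experiment in Drosophila melanogaster. The set comprises 10 genes listed by name, with earlier results of these data known when the list was made, and 8 of them had an array row annotated to that gene alone: br, Eip78C, Hr3, Hr4, Hr39, Blimp-1, ftz-f1 and Eip93F. Eip74EF and Eip75B matched no such row and were not analysed here. The 8 genes are among 13402 genes with a row, and all 8 passed the filter on dim genes that left 10051 genes to test. Hr4 had 2 rows, of which the brighter was used, and the others had 1 row each.

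All larvae were of strain w1118 and were taken whole at an age of 5 days from the egg. The control larvae ate a semi-purified diet, and the juice larvae ate that diet with palm fruit juice, a phenolic-rich water extract of the oil palm's fruit. There were 3 arrays per group, each with the pooled RNA of 3 to 4 larvae, so that larvae at different points of development can be mixed in 1 value. The labels give neither the instar nor the sex of the larvae. A whole-body value cannot tell fewer cells of a type from less RNA per cell. Nothing in the labels says whether the pools came from separate cultures, so p-values measure the spread between these pools only.

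Ecdysone binds a receptor made of the nuclear receptors EcR and usp. Towards the end of larval life the hormone rises, and the receptor directly induces the early genes br, Eip74EF and Eip75B. The early-late genes Eip78C, Hr3, Hr4 and Hr39, all nuclear receptors, need both the hormone receptor and early proteins for full induction. Hr3 and Hr4 repress the early genes and help to induce ftz-f1, whereas Blimp-1, a repressor that the hormone also induces, holds ftz-f1 back. ftz-f1 comes on in the prepupa as the hormone falls, and makes tissues competent for the next pulse, in which Eip93F acts. These genes therefore serve as a clock of the passage from larva to pupa, and their levels in a pool depend on the age of its larvae to within hours.

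Values are log2 expression values from the authors' RMA processing, in which a difference of 1 is a factor of 2. Because each row has its own probes, levels of different genes were not set against each other, and only differences within a gene are described. Differences are juice minus control, with limma's moderated standard error (SE), and adjusted p-values were corrected over all 10051 genes. A pair of arrays stood apart from the rest: 536 tested genes in control replicate 1 and 440 in juice replicate 2 differed at least 2-fold from the average over the remaining arrays, compared with 54 to 178 genes in the other 4. Each member's difference is therefore also given without this pair.

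No member passed limma's test after adjustment: the adjusted p was 0.961 for Hr39 and 0.931 for each of the other 7 genes, and 0.0% of all tested genes passed. Of the 8, 7 had a lower mean in juice larvae, where 55.1% of all tested genes did. The median difference over the members was -0.69, against -0.025 over all tested genes. It came to -0.39 without juice replicate 2, -0.45 without control replicate 3 and -0.41 without the pair of arrays that stood apart. At unadjusted p under 0.05 there were 2 members, Blimp-1 and Hr4, both lower, where 2.0% of all tested genes were lower and 2.68% higher at that threshold. The juice pools lay wholly below the control pools in 1 member, Blimp-1, beside 5.08% of tested genes. They lay wholly above them in 1 member, ftz-f1, beside 4.96%.

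**Figure D1:**
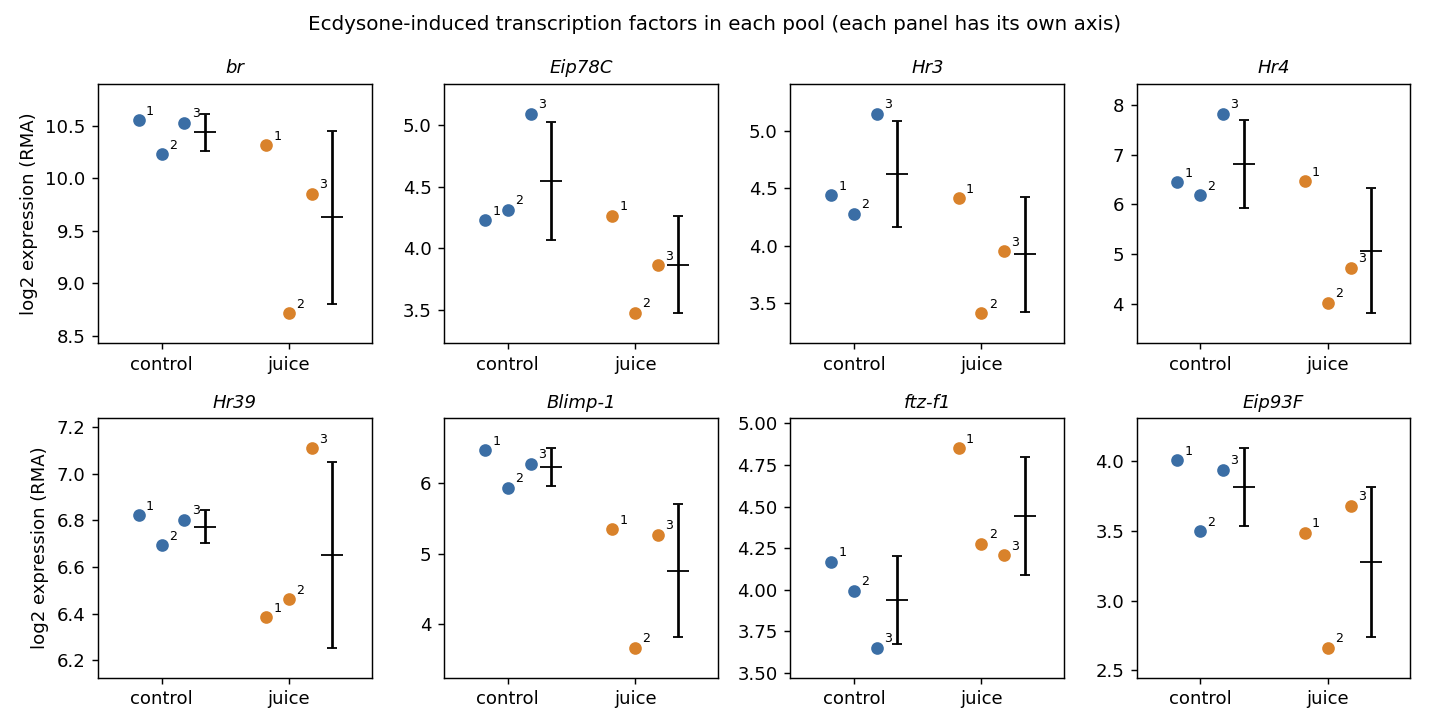
Log2 expression of the 8 measured factors in each pool, with control pools in blue, juice pools in orange and the replicate number beside each point; the black bar is the mean with its SD over 3 pools. Juice replicate 2 is the lowest pool in 6 of the 8 panels, and ftz-f1 is the gene whose juice pools all lie above the control pools.

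Among the early genes, br was measured. It encodes the Broad family of zinc-finger proteins, which drive the change from larval to pupal programmes, and its row does not separate their isoforms. Its log2 levels were 10.55, 10.23 and 10.53 in control replicates 1 to 3 and 10.32, 8.72 and 9.85 in juice replicates 1 to 3. The control pools lay close together, juice replicate 1 lay among them, and juice replicate 2 stood 1.13 below the next lowest pool. The difference was -0.81 ± 0.38 (SE), with a 95% interval from -1.70 to 0.091 over all arrays. Without juice replicate 2 it shrank to -0.35, and without both arrays that stood apart to -0.29. The SD between juice pools was 0.82, against 0.18 between control pools (n = 3 each).

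Of the early-late genes, Hr4 varied most. This nuclear receptor restrains the early genes and takes part in timing the end of larval growth. Its log2 levels were 6.44, 6.18 and 7.83 in the control pools and 6.46, 4.02 and 4.72 in the juice pools, in replicate order. From the lowest to the highest pool this is a range of 3.81, or 14.0-fold. Control replicate 3 stood 1.37 above every other pool, juice replicate 1 lay with the remaining control pools, and juice replicates 2 and 3 were low. The groups thus overlapped through juice replicate 1. The difference of -1.75 ± 0.67 (SE), a control-over-juice fold of 3.37, had a 95% interval from -3.33 to -0.17. It no longer reached unadjusted p under 0.05 without control replicate 3 (-1.25), juice replicate 2 (-1.23) or juice replicate 3 (-1.58), or without the arrays that stood apart (-1.41). The dimmer row of Hr4 gave 6.45, 5.70 and 6.996 in control pools and 6.20, 3.80 and 5.16 in juice pools, a difference of -1.33 with the same highest and lowest pool.

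Hr3 and Eip78C followed the pools in a similar way over a smaller range. Hr3, a nuclear receptor that induces ftz-f1, had log2 levels of 4.44, 4.28 and 5.15 in the control pools and 4.41, 3.42 and 3.95 in the juice pools. Eip78C, a nuclear receptor named for its ecdysone-induced puff, measured 4.23, 4.32 and 5.09 in the control pools and 4.27, 3.48 and 3.86 in the juice pools. Control replicate 3 was the highest pool, by 0.71 in Hr3 and 0.78 in Eip78C, juice replicate 2 was the lowest in both, and juice replicate 1 lay between control replicates 1 and 2. The differences were -0.69 ± 0.32 (SE) for Hr3 and -0.68 ± 0.29 for Eip78C, with 95% intervals from -1.44 to 0.050 and from -1.36 to 0.0082. Without control replicate 3 they came to -0.43 and -0.40, without juice replicate 2 to -0.44 and -0.48, and without both arrays that stood apart to -0.53 and -0.64.

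Hr39, a nuclear receptor of the same family as ftz-f1, ordered the pools differently from the other early-late genes. Its log2 levels were 6.82, 6.69 and 6.80 in the control pools and 6.38, 6.46 and 7.11 in the juice pools. The control pools lay between the lowest and the highest juice pool. The difference was -0.12 ± 0.21 (SE), with a 95% interval from -0.62 to 0.38 (limma, adjusted p = 0.961). With 3 pools per group, any difference within that interval remained compatible with the data. The sign of the difference turned without juice replicate 1, to 0.013, and without both arrays that stood apart the difference was -0.0018.

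Blimp-1, the repressor of ftz-f1, was the member whose juice pools all lay below the control pools. Its log2 levels were 6.46, 5.93 and 6.27 in the control pools and 5.34, 3.67 and 5.27 in the juice pools. The gap between the nearest pools of the 2 diets was 0.59, and juice replicate 2 stood a further 1.60 below the other juice pools. The difference was -1.46 ± 0.44 (SE), with a 95% interval from -2.50 to -0.43 and a control-over-juice fold of 2.76 (limma, adjusted p = 0.931). An exact permutation test over the 6 pools, two-sided, gave p = 0.1, the smallest that 3 pools against 3 allow. Every gene whose groups do not overlap gets this value, so it adds nothing to that separation. Without juice replicate 2 the difference was -0.92 (limma, adjusted p = 0.921), and without both arrays that stood apart -0.80 (adjusted p = 0.947), and both stayed at unadjusted p under 0.05.

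ftz-f1, the factor of the prepupa, was the member with a higher mean in juice larvae. Its log2 levels were 4.17, 3.99 and 3.65 in the control pools and 4.85, 4.28 and 4.21 in the juice pools. The groups did not overlap, but the nearest pools were only 0.038 apart, and juice replicate 1 stood 0.57 above the next pool. Control replicate 3, in which Hr3, Hr4 and Eip78C were highest, was the pool with the least ftz-f1. The difference was 0.51 ± 0.22 (SE), with a 95% interval from -0.022 to 1.03. A two-sided exact permutation test again gave p = 0.1, a value fixed by the lack of overlap. The difference was 0.30 without juice replicate 1 and 0.36 without control replicate 3. Without the arrays that stood apart it was 0.71, which reached unadjusted p under 0.05 (limma, adjusted p = 0.947). Transcripts from the separate promoters of ftz-f1, including the form loaded into the egg, share this row.

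Eip93F encodes a DNA-binding factor that directs the breakdown of larval tissues and adult differentiation after pupation. Its row was dim, at the 31.9th percentile of tested genes, with log2 levels of 4.01, 3.50 and 3.94 in the control pools and 3.49, 2.66 and 3.68 in the juice pools. Juice replicate 2 was the low pool, and juice replicates 1 and 3 lay within or at the edge of the control range. The difference was -0.54 ± 0.29 (SE), and it was -0.23 without juice replicate 2 and -0.14 without both arrays that stood apart.

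**Figure D2:**
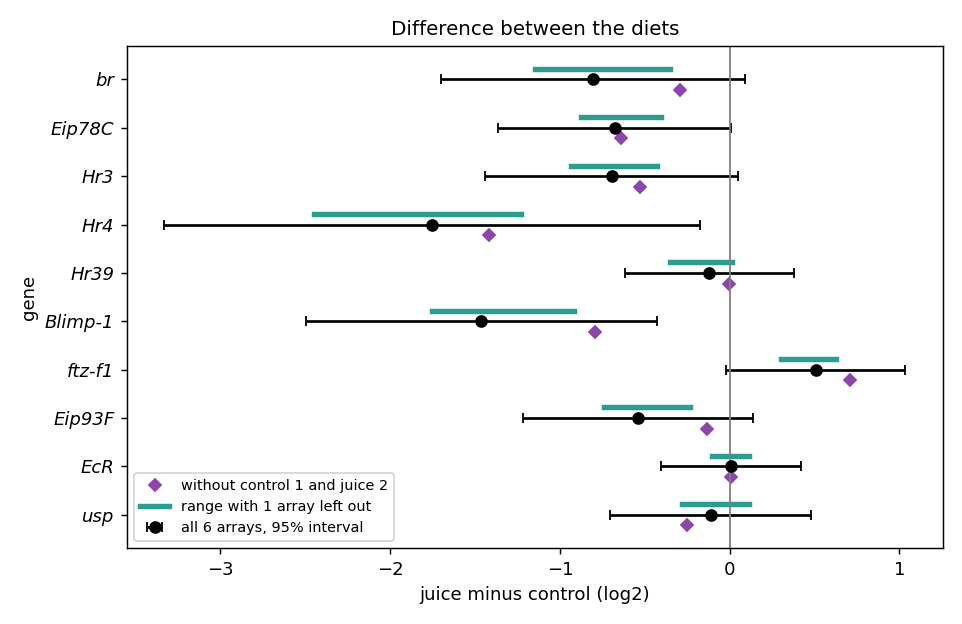
Juice minus control on the log2 scale for the 8 factors and for the receptor genes EcR and usp, with limma's 95% interval over all 6 arrays (black), the range over the fits with 1 array left out (green) and the value without control replicate 1 and juice replicate 2 (purple). Blimp-1 and Hr4 have intervals below 0 with all arrays, and EcR lies at 0.0062.

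The members differed between pools of the same diet more than most genes did. The SD within groups lay above the median of all tested genes, 0.23, in all 8 members. It was 1.09 for Hr4, at the 99.5th percentile of tested genes, 0.70 for Blimp-1, at the 95.5th, and 0.59 for br, at the 93.2nd. Hr39 had the lowest rank, the 65.3rd percentile. These ranks are over tested genes of every span in the genome. The spread was uneven between the diets in some members. For br, Hr39 and Blimp-1 the SD was 0.18, 0.069 and 0.27 between control pools, and 0.82, 0.40 and 0.95 between juice pools. For Eip78C it was 0.48 between control and 0.39 between juice pools. The spread among the juice pools was up to 5.43-fold, in Hr4, while the 3 juice pools of ftz-f1 lay within 1.56-fold.

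Set out by pool, the factors gave each pool its own profile, described here as the deviation from the mean of the 6 arrays within each gene. Control replicate 3 was the highest pool in 3 of the 4 early-late genes, with deviations of 0.87 for Hr3, 0.89 for Eip78C and 1.88 for Hr4, and the lowest in ftz-f1, at -0.54. For Hr39, the fourth early-late gene, it stood at 0.090, and juice replicate 3 was the highest pool at 0.40. Juice replicate 2 was the lowest pool for br (-1.31), Eip78C (-0.73), Hr3 (-0.86), Hr4 (-1.92), Blimp-1 (-1.82) and Eip93F (-0.89), while its ftz-f1 stood at 0.085. Juice replicate 1 had the highest ftz-f1, at 0.66, together with br, Hr3, Hr4 and Eip78C above their means and Blimp-1 at -0.15. Juice replicate 3 was low in Hr4 (-1.22) and near the mean in br, Blimp-1, ftz-f1 and Eip93F, with deviations from -0.22 to 0.13. Control replicates 1 and 2 were similar to each other in Eip78C, Hr3 and Hr4, and replicate 1 was the higher in br, Blimp-1 and Eip93F. In control replicates 1 to 3 Blimp-1 lay above and ftz-f1 below its mean, and in the juice pools the reverse held. This repeats the separation of the diets given above for both genes. For ftz-f1 it was narrow, at -0.023 in control replicate 1 and 0.015 in juice replicate 3. Hr3, Hr4 and Eip78C were thus highest in a control pool, and Hr39 and ftz-f1 in different juice pools. The pools of 1 diet were thus not alike in these genes, and the age of the larvae in each pool was not tested.

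**Figure D3:**
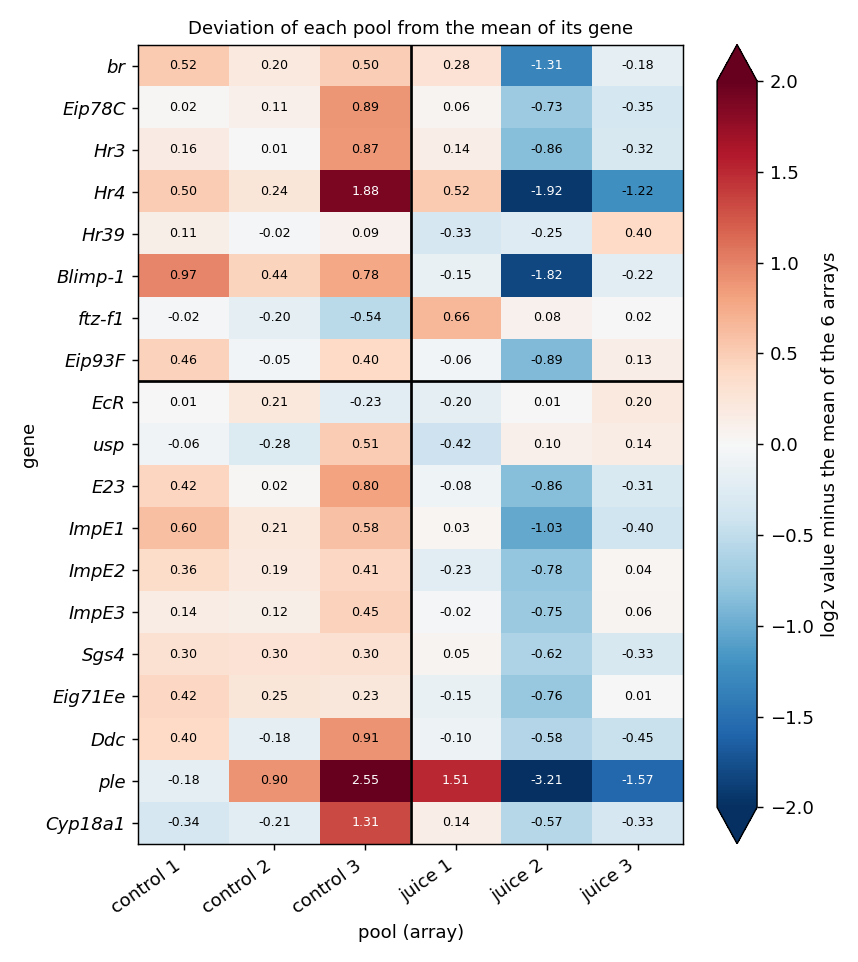
Log2 value of each pool minus the mean of the 6 arrays for the same gene, in red above and in blue below, for the 8 factors (above the line) and for receptor and target genes; the colour ends at 2 in either direction and the number in each cell is the deviation. Control replicate 3 is the reddest column in Hr3, Hr4 and Eip78C, and juice replicate 2 is the bluest in br, Blimp-1 and Hr4.

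Juice replicate 2 also read low in long genes in general. Among tested genes, 9975 had a known span in the fly assembly Release 6 plus ISO1 MT, and the 815 that span 20 kb or more had a median deviation of -0.22 in juice replicate 2, against 0.035 to 0.075 in the other pools. Of these long genes 56.7% were lowest in juice replicate 2, compared with 23.2% of all tested genes. All 8 members are such long genes, with spans from 21.1 to 89.7 kb, and 6 of the 8 were lowest in juice replicate 2, as given above. Over the long genes as a whole 68.6% had a lower juice mean, with a median difference of -0.11 and 3.56% at unadjusted p under 0.05 on the lower side. The part of gene span in the members' differences was not tested.

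**Figure D4:**
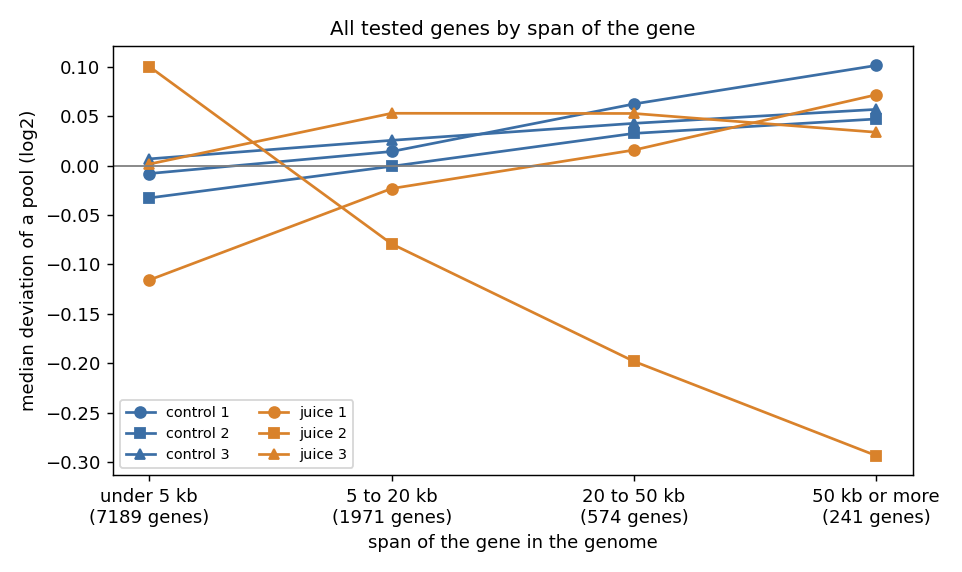
Median deviation from the mean of the 6 arrays over tested genes grouped by the span of the gene, 1 line per pool, with control pools in blue and juice pools in orange. Juice replicate 2 goes from 0.10 in genes under 5 kb to -0.29 in genes of 50 kb or more, while the other pools lie between 0.034 and 0.10 in the longest class.

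Pearson correlations over the 6 pools were computed for all 28 pairs of members, and the median was 0.74. Hr39 gave lower values with the 6 members other than ftz-f1, from 0.026 with Hr4 to 0.60 with Eip93F. Hr39 and ftz-f1 were left out of the next range after the values were seen, so that range reflects this choice. Among the 6 members other than ftz-f1 and Hr39, the 15 pairs ran from 0.73 for Eip78C and Eip93F to 0.985 for Eip78C and Hr3. With the group means removed they ran from 0.54 to 0.97. Without the 2 pools farthest from the median of the first gene they ran from -0.17 to 0.99, and 4 of the 15 were under 0.5. These were Eip78C and Eip93F (-0.17), Hr4 and Blimp-1 (0.35), br and Eip78C (0.45) and Eip93F and Hr4 (0.48), so that the relation in these pairs rests on the farthest pools. Hr3 and Hr4 had Pearson r = 0.98 (exact permutation p = 0.00278, 0.0389 after Benjamini-Hochberg adjustment over the 28 pairs) and Spearman rho = 0.94 (exact permutation p = 0.0167, adjusted 0.156), and r was 0.99 without the 2 pools farthest from the median of Hr3. The pair br and Blimp-1 had r = 0.96 and rho = 0.94, with the exact permutation p-values 0.00694 and 0.0167 (adjusted 0.0389 and 0.156), and r fell to 0.73 without the 2 farthest pools. In all, 6 pairs had an adjusted p under 0.05 by Pearson's r and 0 by Spearman's rho. The share of such pairs among other tested genes, or among other long genes, was not computed, so the count has no background. The permutations exchanged pools between the diets, and the pairs were examined after seeing the values. These p-values therefore do not show that the genes are regulated together. All 7 correlations with ftz-f1 were below 0, from -0.54 with Hr39 (exact permutation p = 0.238) to -0.18 with br. For ftz-f1 and Blimp-1, r was -0.39 (exact permutation p = 0.386). With the group means removed, 5 of the 7 correlations with ftz-f1 turned above 0, up to 0.50 with br and 0.37 with Blimp-1, and those with Hr39 (-0.53) and Eip78C (-0.027) stayed below 0. The negative sign in those 5 pairs thus came with the difference between the diet means. The pools share their larvae and their array across all genes.

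The genes most alike in pattern were sought by Pearson r over the 6 arrays among all tested genes for the 3 members with the largest range. They were mys, mura and santa-maria for Hr4 (r from 0.985 to 0.998), CG17803, 2mit and CG6923 for Blimp-1 (0.992 to 0.995), and Tnpo, CG10912 and CG2865 for br (0.996). With 6 arrays such values are common: the median over all tested genes of their own best r was 0.993.

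Of the hormone receptor genes, EcR ordered the pools differently from the factors. The other, usp, was highest in control replicate 3, as were Hr3, Hr4 and Eip78C, but lowest in juice replicate 1, as was Hr39. EcR had log2 levels of 7.98, 8.18 and 7.75 in the control pools and 7.78, 7.98 and 8.17 in the juice pools. Its difference was 0.0062 ± 0.18 (SE), with a 95% interval from -0.41 to 0.42 (limma, adjusted p = 0.999). In juice replicate 2, the lowest pool for most factors, EcR stood at 7.98, beside a mean of 7.97 over all arrays. usp, the partner of EcR, measured 5.93, 5.71 and 6.50 in the control pools and 5.58, 6.10 and 6.14 in the juice pools, a difference of -0.11 ± 0.25 (95% interval from -0.71 to 0.48). The sign of both small differences turned without control replicate 3 (-0.11 for EcR, 0.11 for usp), and it also turned without juice replicate 3 for EcR and without juice replicate 1 for usp. Without the pair of arrays that stood apart they were 0.0093 for EcR and -0.25 for usp. Of the 9 tested genes in a list of the receptor and its cofactors, 0 were at limma's unadjusted p under 0.05 and the median difference was -0.038, which became 0.037 without that pair. The coactivator gene tai came closest, with -0.32 ± 0.19 (SE), or -0.16 without the pair.

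In a list of 12 tested genes that ecdysone also induces, 10 had a lower juice mean, where 55.1% of all tested genes did. By limma, 3 were lower and 0 higher at unadjusted p under 0.05, beside 2.0% and 2.68% of all tested genes, and the median difference was -0.37. Without juice replicate 2 the median was -0.21, and without both arrays that stood apart it was -0.23, with 8 of the 12 lower beside 54.1% of all tested genes. E23, an ABC transporter induced early by the hormone, differed by -0.83 ± 0.27 (SE). ImpE1 and ImpE2, which the hormone induces in imaginal discs, had differences of -0.93 ± 0.28 and -0.64 ± 0.22. Without both arrays that stood apart E23 came to -0.60, ImpE1 to -0.58 and ImpE2 to -0.40, and of the 3 ImpE1 stayed at unadjusted p under 0.05. MsrA, a methionine sulfoxide reductase once named for its induction by ecdysone, went the other way at 0.70 ± 0.32. Juice replicate 2 was the lowest pool in 8 of the 12, as in 23.2% of all tested genes, and control replicate 3 the highest in 5, as in 17.1%.

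The list of hormone synthesis and breakdown, which also holds the sterol transport gene Npc1a, showed no difference past the threshold. In it 0 of 7 tested genes were at limma's unadjusted p under 0.05. The median difference was 0.0034, which was -0.013 without the arrays that stood apart. The late enzymes sad and shd differed by 0.15 ± 0.17 and 0.23 ± 0.16, and spok, which acts earlier, by 0.084 ± 0.17, or by -0.045 without juice replicate 3. Cyp18a1, which inactivates ecdysone, had log2 levels of 2.89, 3.01 and 4.54 in the control pools and 3.36, 2.65 and 2.89 in the juice pools. Control replicate 3 was thus the high pool for this gene too, and juice replicate 2 the low one. Its difference of -0.51 went to 0.016 without control replicate 3. Of the prothoracic gland markers nvd, spok, phm (now phtm), dib and sad, nvd and dib were too dim to be tested.

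Genes that mark stages around puparium formation gave further readings of the pools. All 6 salivary glue genes had a lower juice mean (median difference -0.36), beside 55.1% of all tested genes, and Sgs4 was the member at unadjusted p under 0.05. Sgs4 had nearly the same log2 level in the control pools, 5.58 ± 0.0031 (SD), and 4.99 ± 0.34 (SD) in the juice pools (n = 3 each). The mean deviation of the glue list ran from 0.11 to 0.27 in control pools and from -0.35 to -0.025 in juice pools. Of the late puff cluster Eig71E, Eig71Ee was bright, at 11.50 ± 0.10 (SD) in control and 10.90 ± 0.41 in juice pools (difference -0.60 ± 0.22, SE, and -0.31 without the arrays that stood apart), whereas the other 8 genes with a row were too dim to be tested. The late puff list thus rested on Eig71Ee alone, which does not speak for the cluster. The prepupal cuticle genes Edg84A and Edg91 were below the filter too. Edg78E was dim at 2.93 ± 0.035 in control and 3.04 ± 0.18 in juice pools. The adult cuticle gene Acp65A (now Acp65Aa), kept in the same list, was also below the filter and does not mark this stage. Ddc, the dopa decarboxylase that tans cuticle, differed by -0.76 ± 0.28 (SE), with its highest value in control replicate 3 and its lowest in juice replicate 2. It no longer reached unadjusted p under 0.05 without the arrays that stood apart (-0.64), nor did Sgs4 (-0.44) or Eig71Ee. ple, the tyrosine hydroxylase that supplies the same pathway, spread widely within both diets, at 8.58 ± 1.38 (SD) in control and 6.40 ± 2.40 in juice pools, and its difference of -2.18 ± 1.19 (SE) was smaller than the SD of the juice pools and came to -1.12 without juice replicate 2 and -1.45 without control replicate 3. The fat body genes Fbp2, Fbp1 and Lsp2 differed by -0.28 ± 0.14, -0.21 ± 0.13 and -0.15 ± 0.13, with 0 of 3 at limma's unadjusted p under 0.05. Of the 4 tested genes of the juvenile hormone list, 0 were at that threshold, and its early response gene Kr-h1, which restrains metamorphosis, differed by -0.038 ± 0.16, and by 0.095 without the arrays that stood apart.

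Markers of tissues that a whole larva holds differed between pools as well. For comparison, 55.1% of all tested genes had a lower juice mean, and 54.1% without the pair of arrays that stood apart. Testis markers had 6 of 6 tested genes with a lower juice mean, and their mean log2 level ran from 3.79 to 4.75 in control and from 3.77 to 3.84 in juice pools, highest in control replicate 1. Among them Prosalpha6T differed by -0.57 ± 0.23 (SE), fzo by -0.66 ± 0.35, mia by -0.29 ± 0.17 and S-Lap5 by -0.39 ± 0.30, while can, aly and bam were below the filter. Without the pair these differences were -0.50 for Prosalpha6T, -0.14 for fzo, -0.093 for mia and -0.071 for S-Lap5, and the median of the list went from -0.39 to -0.11. The juice means of Prosalpha6T (2.48) and dj (2.62) were themselves under the filter's cut. These genes passed it through their control means of 3.06 and 2.87. Of the untested markers, aly (0.10) and bam (0.025) were higher in juice larvae and can (-0.11) lower. The count of lower testis genes therefore holds only for those that passed the filter. Nervous system markers had 6 of 7 lower, with mean log2 levels of 4.16 to 4.39 in control and 3.53 to 4.16 in juice pools, lowest in juice replicate 2. Here CadN differed by -1.07 ± 0.31, Sh by -0.58 ± 0.36, repo by -0.25 ± 0.16 and brp by -0.31 ± 0.19. The neuronal marker elav went the other way, at 0.15 ± 0.24, with its highest value in juice replicate 3. Without the pair 4 of the 7 were lower, the median of the list went from -0.31 to -0.078, and the differences were -0.69 for CadN, -0.28 for Sh, -0.34 for repo and -0.078 for brp. Muscle markers had 4 of 6 higher, with mean log2 levels of 9.22 to 9.65 in control and 9.41 to 10.32 in juice pools, highest in juice replicate 1. The 4 were Mlc1 (0.60 ± 0.18), Mlc2 (0.65 ± 0.19), up (0.62 ± 0.22) and Mf (0.57 ± 0.22), each at limma's unadjusted p under 0.05, beside 2.68% of all tested genes on that side. The other 2, bt and sls, went the other way, with differences of -0.14 and -0.22. Without the pair all 6 were higher and 0 were at limma's unadjusted p under 0.05, beside 1.74% of all tested genes. The part of tissue make-up in the values of the ecdysone factors was not tested.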

How the data were processed

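RNA of 6 whole-larva pools, 3 control and 3 palm fruit juice, was measured on 6 single-channel arrays. The deposited log2 values, 1 per array row, were made by the authors with RMA in Affymetrix Expression Console 1.4.0.38, per the submitters' processing notes. The sources used here give neither options nor annotation version. RMA brings the probe values of the arrays to a common distribution and so would hide most of a change shared by the majority of genes. The deposited row values were not fully level, with array medians from 3.60 to 3.77. The number of arrays limits the precision, and no scan date or batch was given.

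Of 16322 rows, 13441 were annotated to 1 gene, and the brightest row was kept per gene. A filter then removed the dimmest 25% by mean (log2 under 2.63), leaving 10051 genes. Groups were compared with lmFit and eBayes in limma 3.58.1 (R 4.3.3), without covariates, with Benjamini-Hochberg adjustment across every tested gene. The procedure was tested on simulated data with independent normal noise and, for a given gene, the same SD in every array. That setting lacks the arrays that stood apart and the uneven spread between the diets. It therefore says nothing about how the test performs on these arrays. The alternatives left out arrays, added the replicate number as a block, or changed the filter, normalization, variance model, array weights or the choice of row. For the other lists arrays were left out in the same way, as an alternative added after seeing the values. All members were named, and of the other lists EcR, usp and up to 4 genes with the smallest unadjusted p. The genes bt, sls and elav were added after their values were seen. Members and lists were chosen with earlier results of these data known, and the grouping by gene span and the pairwise correlations of members after seeing the values.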

Additional observations from a re-analysis of the deposited data

How the results depend on the processing

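Over 15 alternatives, Blimp-1, Hr4, br, Hr3, Eip78C and ftz-f1 kept their direction in all 15, Eip93F in the 14 in which it was tested (it was left out with the dimmer 50%), and Hr39 in 13. Blimp-1 stayed at unadjusted p under 0.05 in 15 of 15 and Hr4 in 11, and no member passed after adjustment (smallest adjusted p = 0.668, without juice replicate 1). Members at unadjusted p under 0.05 numbered 1 to 5 with 1 array left out. With the replicate number as a block there were 6, although same-numbered pools did not deviate together (correlations of -0.11, -0.074 and -0.082), so the numbers were not taken to pair them. With 1 array left out, all tested genes gave 0 to 4 calls at adjusted p under 0.05 (the 4 without juice replicate 3), and at unadjusted p 181 to 750, 62 to 338 of them lower. The lowest of these unadjusted counts came without control replicate 3 and the highest without juice replicate 1. Of the genes at unadjusted p under 0.05, 42.8% were lower as deposited, 22.7% with equal array medians (108 lower, against 201) and 29.1% after quantile normalization. With 1 array left out, Hr39 ran from -0.35 to 0.013, EcR from -0.11 to 0.11 and usp from -0.28 to 0.11, and Hr39 was 0.055 with array weights. The member median ran from -0.91 to -0.39. For the other lists and the genes named from them, arrays were left out as a choice made after seeing the data. With 1 array left out, list medians ran from -0.12 to 0.067 (receptor), -0.56 to -0.21 (other induced genes), -0.046 to 0.14 (synthesis), -0.49 to -0.30 (glue), -0.76 to -0.37 (late puff), -0.28 to -0.17 (fat body), -1.03 to -0.49 (cuticle), -0.12 to 0.047 (juvenile hormone), -0.73 to -0.17 (testis), 0.45 to 0.72 (muscle) and -0.42 to -0.16 (nervous system). The genes with a lower juice mean then numbered 2 to 6 (receptor), 1 to 4 (synthesis), 1 to 3 (juvenile hormone) and 0 to 2 (muscle). Lower genes at limma's unadjusted p under 0.05 numbered 0 to 1 (receptor, late puff), 1 to 3 (other induced), 1 to 2 (glue, nervous system) and 0 to 2 (cuticle, testis, muscle), and higher ones 0 to 1 (other induced) and 2 to 4 (muscle). Without both arrays that stood apart the medians were 0.037 (receptor), -0.013 (synthesis), -0.29 (fat body), -0.11 (testis) and -0.078 (nervous system). There 3 receptor genes, 4 synthesis genes and 0 muscle genes had a lower mean, and 0 glue, late puff and cuticle genes were lower and 0 muscle genes higher at limma's unadjusted p under 0.05. Signs turned within -0.81 to 0.016 for Cyp18a1, -0.12 to 0.094 for Kr-h1, -0.81 to 0.34 for bt, -0.85 to 0.10 for sls and -0.045 to 0.20 for spok, and without both arrays for Kr-h1 (0.095), bt (0.36) and sls (0.13). The cause was not tested. Rows near a log2 value of 2.6, such as those of the dim late puff genes, are close to the low end of the scale and were not tested.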
